A study of Danio rerio with 15 samples.

Results

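Retinoic acid is the active form of vitamin A. It is made inside tissues when retinol is oxidised to retinaldehyde and retinaldehyde is oxidised to the acid, and it is cleared by oxidation through enzymes of the Cyp26 family. The acid binds retinoic acid receptors (RAR), which sit on DNA as pairs with retinoid X receptors (RXR) and switch nearby genes on or off. In the vertebrate testis this pathway is best known for driving spermatogonia, the mitotic germ cells, towards differentiation and meiosis.

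The genes described here are 7 of those that make, break down or sense retinoic acid. They were selected by Ensembl identifier, and all 7 of them were found among the 33752 identifiers of the count tables. aldh1a2 (ENSDARG00000053493) encodes a retinaldehyde dehydrogenase that makes the acid. cyp26a1 (ENSDARG00000033999) and cyp26b1 (ENSDARG00000077121) encode enzymes that degrade it. raraa (ENSDARG00000056783), rarab (ENSDARG00000034893), rarga (ENSDARG00000034117) and rargb (ENSDARG00000054003) encode receptors, in a pair of duplicated alpha genes and a pair of duplicated gamma genes. All 7 passed the filter on low counts, as did 21277 identifiers in all.

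Whole testes of adult zebrafish (Danio rerio), all wild type, were sequenced as RNA in 3 groups, labelled control, depletion and recovery and called control, depleted and recovering here. Follicle-stimulating hormone, androgens and retinoic acid are the signals named in the series title. How the testes were depleted, and how long they had recovered, is not given in the sources used here. Counts of 4 control, 5 depleted and 5 recovering libraries, each a biological replicate per the series' design text, were analysed. Control replicate 2 was not analysed here.

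Library totals ran from 8123444 to 48646941 counts with a median of 9307359, and control replicate 5 was the deepest. Levels are given in CPM, counts per 1000000 counts of a library whose total was corrected by the TMM method (trimmed mean of M-values). On this scale 3 counts correspond to between 0.0553 and 0.424 CPM. Marker lists of testis cell types were summed per library. The germ cell list, of which 12 genes were found, summed to between 8174 and 9273 CPM in control testes, between 24.4 and 4112 CPM in depleted testes and between 6715 and 10060 CPM in recovering testes. Among the depleted libraries, replicates 1 and 2 kept 2972 and 4112 CPM, and replicates 3, 4 and 5 had 127, 375 and 24.4 CPM. Sertoli, Leydig, endothelial, leukocyte, erythrocyte, stromal and epithelial lists summed higher in depleted testes at the mean, the erythrocyte list at 99.4 CPM in control, 1457 CPM in depleted and 536 CPM in recovering testes, and no gene of any list was at 0 in every library of a group. In whole testes, fewer cells of a type and less RNA per cell cannot be told apart.

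**Figure D1:**
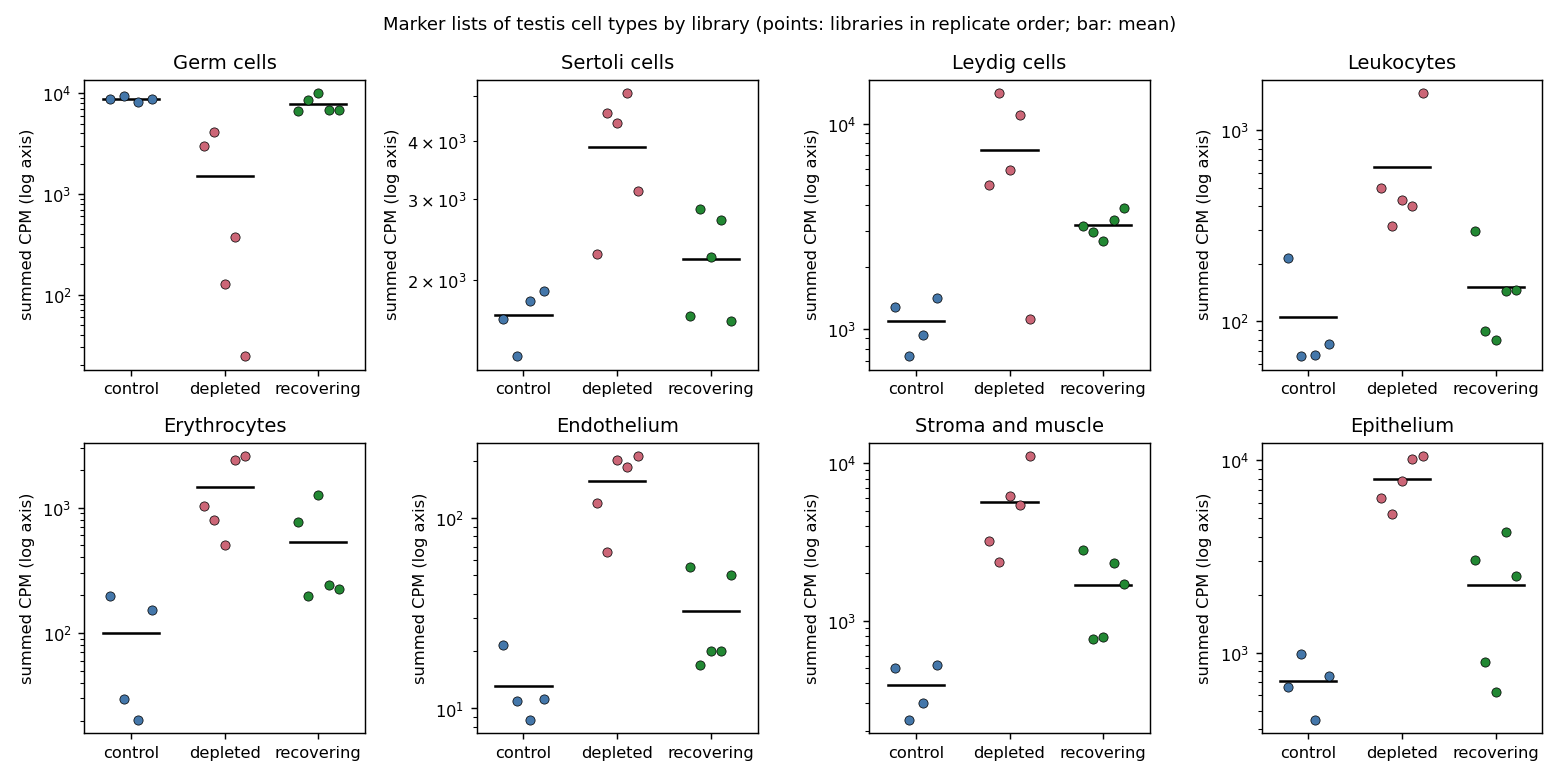
Summed CPM of the genes of each cell type marker list (y axis, log scale) in control (n = 4), depleted (n = 5) and recovering (n = 5) libraries; each point is 1 library in replicate order and the bar is the group mean. The germ cell sum of every depleted library, at most 4112 CPM, lies below every control and recovering library, and the Leydig sum of depleted replicate 5, at 1121 CPM, lies within the control range.

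The synthesis gene, 1 of the 2 breakdown genes and 2 of the 4 receptors rose in depleted testes and fell again in recovering testes. Between depleted and control testes 4 of the 7 genes had an adjusted p under 0.05 and are called changed, all 4 upward. Testing used the quasi-likelihood F-test of edgeR, with p-values adjusted over all tested genes by the Benjamini-Hochberg method. By the same rule 66.3% of all tested genes were called, 34.2% upward. At an unadjusted p under 0.05 the same 4 of the 7 passed, beside 70.1% of all tested genes. The median log2 fold change of the 7 genes was 1.75, against 0.03 for all tested genes. For 4 of the 7 genes the depleted and control libraries did not overlap, which held for 53.3% of all tested genes.

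For aldh1a2 the 3 groups separated fully. It stood at 512, 268, 227 and 402 CPM in control replicates 1, 3, 4 and 5. The 5 depleted libraries held 2830, 3368, 4842, 4297 and 2562 CPM in replicate order. The 5 recovering libraries held 1099, 945, 553, 1542 and 1279 CPM. Every depleted library lay above every recovering library, and every recovering library lay above every control library. The level was 10.2-fold higher in depleted than in control testes (log2 fold change 3.34, SE 0.37, adjusted p = 3.35e-05 by edgeR), a larger fold change than that of 95.5% of the tested genes. From depleted to recovering testes it was 3.30-fold lower (log2 fold change -1.72, SE 0.32, adjusted p = 0.000916 by edgeR).

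Recovering testes stood at 3.07-fold the control level of aldh1a2, with no overlap of the libraries. The log2 fold change of 1.62 had a 95% interval of 0.89 to 2.35 and an edgeR adjusted p of 0.0504, just outside the threshold of 0.05. With only recovering and control libraries in the model the edgeR adjusted p was 0.03, with DESeq2 it was 0.000203, and over all 23 alternatives it ran from 0.000203 to 0.213, under 0.05 in 10 of them, which included leaving out any 1 depleted library or recovering replicate 3. The highest value came without control replicate 4.

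cyp26b1 showed the largest rise of the 7. In control replicates 1, 3, 4 and 5 it was at 4.38, 2.18, 3.06 and 6.78 CPM, from 42, 21, 40 and 368 counts. Depleted replicates 1 to 5 held 70.2, 47.9, 157.5, 133.6 and 62.5 CPM, and recovering replicates 1 to 5 held 20.3, 5.62, 10.5, 10.1 and 22.7 CPM. The depleted libraries lay above all others, while the recovering library with the least, replicate 2, fell inside the control range. The level was 22.5-fold higher in depleted than in control testes (log2 fold change 4.49, SE 0.55, adjusted p = 4.77e-05 by edgeR), and the fold change exceeded that of 98.9% of the tested genes. It then fell 6.81-fold from depleted to recovering testes (log2 fold change -2.77, SE 0.46, adjusted p = 0.000567 by edgeR). Against control, recovering testes were 3.31-fold higher with a wide 95% interval of the log2 fold change, 0.68 to 2.77, and did not pass the edgeR test (adjusted p = 0.103). DESeq2 called this difference (adjusted p = 0.0118), the 1 alternative of 23 to do so. With limma-voom the adjusted p was 0.0608, and the highest value was 0.307, by edgeR without control replicate 4.

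cyp26a1, the other breakdown gene, passed the test in no comparison. Control replicates 1, 3, 4 and 5 were at 70.2, 46.1, 46.9 and 105.7 CPM. Depleted replicates 1 to 5 were at 89.4, 47.2, 194.6, 87.1 and 51.6 CPM. Recovering replicates 1 to 5 were at 48.5, 77.6, 98.7, 40.3 and 80.8 CPM. The 3 groups overlapped, with depleted replicate 3 far above the rest. The log2 fold change of depleted against control testes was 0.48 with a 95% interval of -0.42 to 1.38 (edgeR adjusted p = 0.318). Recovering testes differed from depleted testes by a log2 fold change of -0.44 (edgeR adjusted p = 0.341) and from control testes by 0.04 with an interval of -0.85 to 0.94 (edgeR adjusted p = 0.977). Without depleted replicate 3 the difference between recovering and depleted testes was 0.01.

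**Figure D2:**
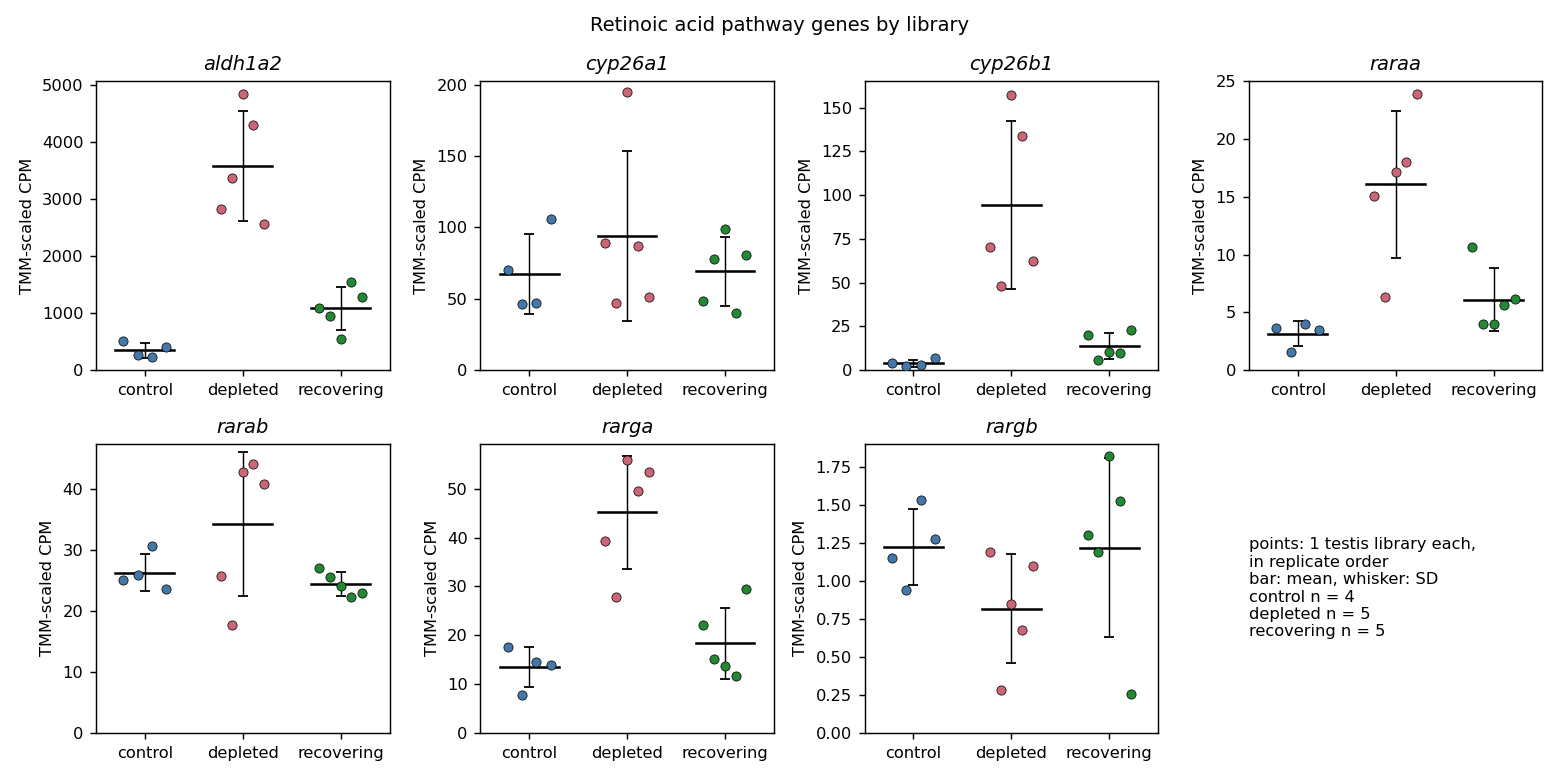
TMM-scaled CPM (y axis, linear from 0) of the 7 genes in control (n = 4), depleted (n = 5) and recovering (n = 5) libraries; points are libraries in replicate order, the bar is the mean and the whisker the SD. aldh1a2 separates all 3 groups, cyp26b1 separates depleted from the other libraries, and cyp26a1, rarab and rargb overlap between groups.

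The balance between synthesis and breakdown genes was described within each library, as a ratio of counts that library scaling cannot move. Such a ratio depends on transcript length, so only its change between groups is read and not its size, and no test was made. The part of a changed mix of cells in these ratios was not tested. aldh1a2 counts per cyp26a1 count were 7.30, 5.82, 4.84 and 3.81 in the control libraries and ranged from 24.9 to 71.3 in the depleted libraries. In recovering replicates 1 to 5 they were 22.6, 12.2, 5.61, 38.2 and 15.8. The depleted and control ranges did not touch, and recovering replicate 3 was the 1 recovering library inside the control range.

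For the other breakdown gene the ranges did not separate. aldh1a2 counts per cyp26b1 count ran from 59.2 to 120 in control, from 30.7 to 70.2 in depleted and from 52.5 to 167 in recovering libraries. Within the breakdown pair there were 15.1 to 20.6 cyp26a1 counts per cyp26b1 count in control libraries, 0.652 to 1.27 in depleted libraries and 2.39 to 13.7 in recovering libraries. These 3 ranges did not overlap. How often ratios of other pairs of genes separate the groups was not examined. Recovering replicate 2 came nearest to the controls and recovering replicate 1 nearest to the depleted libraries.

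**Figure D3:**
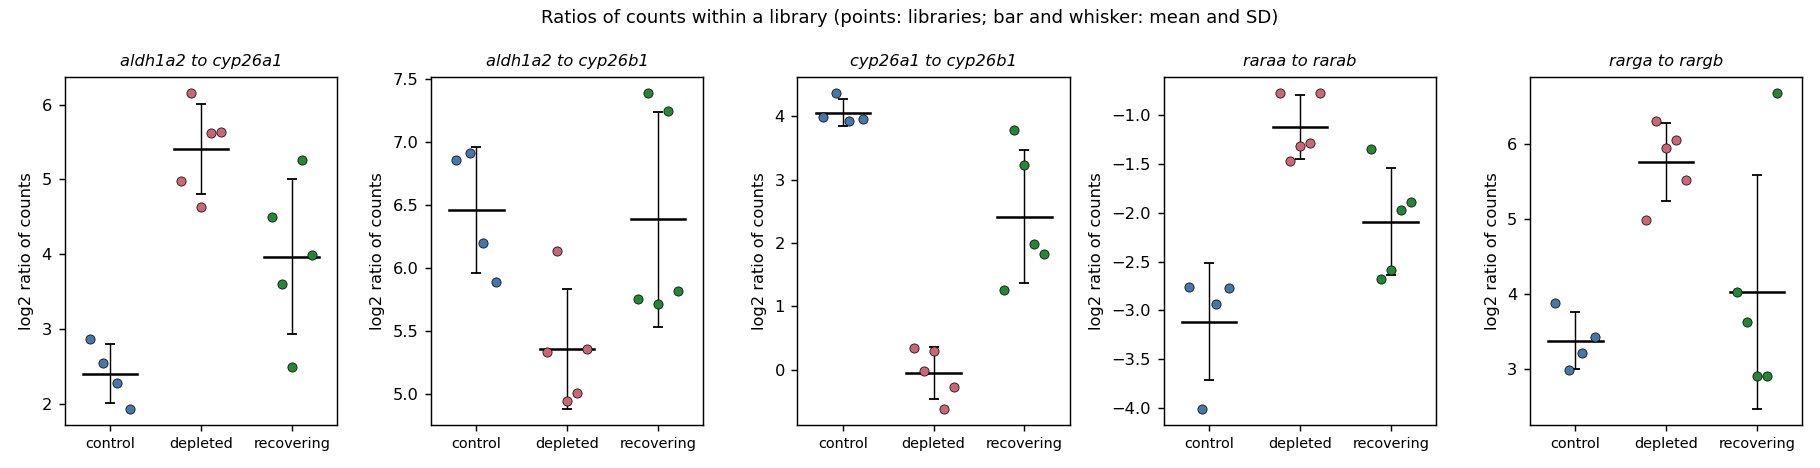
Log2 ratio of the counts of a pair of genes in the same library, with 0.5 added to each count (y axis, log2), in control (n = 4), depleted (n = 5) and recovering (n = 5) libraries; points are libraries in replicate order, bar and whisker the mean and SD. The ratio of cyp26a1 to cyp26b1 counts, with group means of 4.06, -0.05 and 2.42, separates all 3 groups.

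Of the receptors, raraa and rarga rose in depleted testes. raraa was at 3.65, 1.56, 3.98 and 3.47 CPM in control replicates 1, 3, 4 and 5. It was at 15.1, 6.36, 17.1, 17.99 and 23.9 CPM in depleted replicates 1 to 5 and at 10.6, 3.97, 4.02, 5.65 and 6.19 CPM in recovering replicates 1 to 5. Depleted libraries all exceeded control libraries, and recovering libraries overlapped both groups. The level was 5.05-fold higher in depleted than in control testes (log2 fold change 2.34, SE 0.42, adjusted p = 0.000443 by edgeR) and fell 2.65-fold from depleted to recovering testes (log2 fold change -1.41, SE 0.38, adjusted p = 0.00711 by edgeR). Recovering testes were 1.91-fold above control testes, which did not pass (edgeR adjusted p = 0.28).

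rarga was at 17.6, 7.80, 14.5 and 13.8 CPM in control replicates 1, 3, 4 and 5. Depleted replicates 1 to 5 held 39.4, 27.8, 55.8, 49.5 and 53.6 CPM, and recovering replicates 1 to 5 held 22.04, 15.1, 13.8, 11.7 and 29.4 CPM. All depleted libraries lay above the controls, and recovering replicate 5 lay above depleted replicate 2. Between control and depleted testes rarga rose by 1.75 on the log2 scale (SE 0.32, edgeR adjusted p = 0.000478) and between depleted and recovering testes it fell by 1.30 (SE 0.29, edgeR adjusted p = 0.00284). Recovering and control testes differed by a log2 fold change of 0.45 with an interval of -0.21 to 1.12 (edgeR adjusted p = 0.525).

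rarab did not pass, and its depleted libraries were split. It was at 25.1, 25.9, 30.6 and 23.6 CPM in control replicates 1, 3, 4 and 5 and at 22.4 to 27.2 CPM in the recovering libraries. Depleted replicates 1 to 5 were at 25.9, 17.8, 42.8, 44.1 and 40.9 CPM, so with TMM factors 3 libraries lay above all controls and 1 below them. Scaled by total counts, depleted replicate 5, at 29.62 CPM, lay inside the control range of 26.35 to 34.71 CPM. The log2 fold change of depleted against control testes was 0.38 with an interval of -0.12 to 0.88 (edgeR adjusted p = 0.159), turning to -0.010 when total counts set the scale, and that of recovering against depleted testes was -0.49 (edgeR adjusted p = 0.0684). Without depleted replicate 2 both differences were called, at 0.53 (edgeR adjusted p = 0.0127) and -0.61 (edgeR adjusted p = 0.0052). The second was also called without depleted replicate 1 (adjusted p = 0.0481 by edgeR), and limma-voom with all libraries called both, at 0.46 (adjusted p = 0.0352) and -0.58 (adjusted p = 0.0185). With TMM factors, depleted replicate 2 had the lowest level of its group for every one of the 7 genes except aldh1a2. Scaled by total counts, depleted replicate 5 was the lowest for cyp26a1, at 37.4 CPM. Depleted replicate 2 also had the highest germ cell and Leydig sums of its group, at 4112 and 14110 CPM. Depleted replicate 1, with the next highest germ cell sum at 2972 CPM, had the next lowest rarab level, at 25.9 CPM. The part of germ cell and Leydig content in the rarab result was not tested.

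rargb was close to the limit of detection. Its counts were 11, 9, 20 and 69 in control replicates 1, 3, 4 and 5, between 2 and 10 in the depleted libraries and between 4 and 49 in the recovering libraries. The mean level was 1.22 ± 0.249 CPM in control (SD, n = 4), 0.817 ± 0.361 CPM in depleted (SD, n = 5) and 1.22 ± 0.590 CPM in recovering libraries (SD, n = 5). The 2 counts of depleted replicate 2 give 0.283 CPM with an exact Clopper-Pearson 95% interval of 0.0342 to 1.02 CPM, which covers counting error only. The log2 fold change of depleted against control testes, -0.57, had an interval of -1.64 to 0.49 (edgeR adjusted p = 0.313), so a fall of more than 2-fold was not excluded at this depth.

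The share of rarab in the summed counts of the 4 receptors was 60.2% ± 8.21 in control (SD, n = 4), 35.2% ± 2.88 in depleted (SD, n = 5) and 49.7% ± 7.58 in recovering libraries (SD, n = 5). The share of rarga was 30.0% ± 6.63, 47.7% ± 3.62 and 35.8% ± 8.42 in the same order. For both genes the depleted and control libraries did not overlap. The mean level of rarab was not lower in depleted testes with TMM factors, at 26.3 CPM in control and 34.3 CPM in depleted libraries. Shares of counts depend on transcript length, and only their change between groups can be read. The part of a changed mix of cells in the shares was not tested. Within the alpha pair, raraa counts per rarab count were between 0.0621 and 0.148 in control and between 0.36 and 0.585 in depleted libraries, without overlap. Within the gamma pair, rarga counts per rargb count were between 7.94 and 14.7 in control and between 31.7 and 79.0 in depleted libraries, also without overlap, on the few rargb counts given above. Recovering libraries ranged from 0.156 to 0.393 in the alpha pair, above all controls and overlapping the depleted range, and from 7.48 to 103 in the gamma pair, overlapping both. Recovering replicate 5, with 4 rargb counts, gave the value of 103. How reads that match both copies of a duplicated gene were counted is not given in the sources used here, so the division within each pair is uncertain to that extent.

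**Figure D4:**
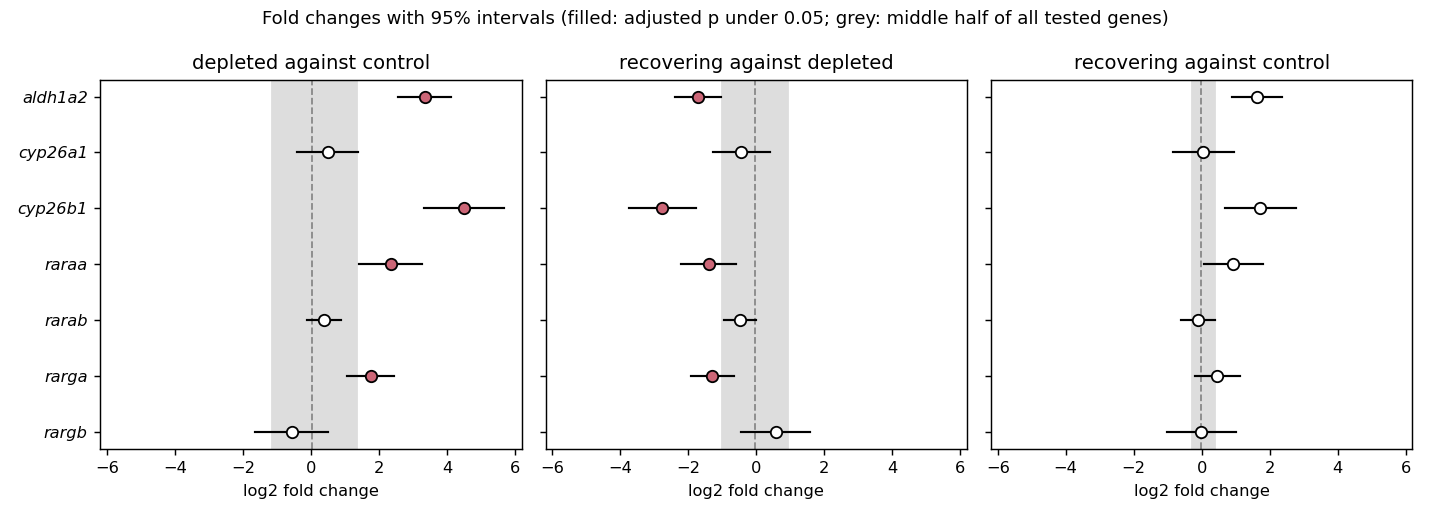
Log2 fold change (x axis) of the 7 genes in the 3 comparisons with 95% intervals from the edgeR fit; filled points have an adjusted p under 0.05, the grey band spans the interquartile range of all tested genes and the dashed line is their median. The filled points are aldh1a2, cyp26b1, raraa and rarga, above 0 on depletion and below 0 on recovery from it.

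In recovering against depleted testes 4 of the 7 genes were called, all 4 downward (edgeR quasi-likelihood test), where 59.2% of all tested genes were called, 28.7% upward and 30.5% downward. At an unadjusted p under 0.05 there were 5 of the 7, rarab being the addition, beside 64.7% of all tested genes. Their groups did not overlap for 2 of the 7, aldh1a2 and cyp26b1, against 33.3% of all tested genes. This comparison shares the depleted libraries with the one above, which favours opposite signs. In recovering against control testes 0 of the 7 genes were called by edgeR, where 0.451% of all tested genes were, 0.418% upward and 0.0329% downward. At an unadjusted p under 0.05 there were 3 of the 7 (aldh1a2, cyp26b1 and raraa), beside 16% of all tested genes. DESeq2 called 2 of the 7, aldh1a2 and cyp26b1, and 6.36% of all tested genes. Only aldh1a2 had groups without overlap in this comparison, as had 12.5% of all tested genes.

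Library scaling moved all genes together. With total counts in place of TMM factors, the median log2 fold change of all tested genes in depleted against control testes went from 0.03 to -0.34. The log2 fold change of aldh1a2 was 3.34 with TMM and 2.98 with total counts, and that of rarga was 1.75 and 1.37. Relative to that median the rise of aldh1a2 was 3.31 and 3.32, and that of rarga was 1.72 and 1.71. Subtracting the median removes a shift common to all genes, so this agreement follows from the arithmetic and tests nothing. The same 4 genes were called by either scaling. Over all tested genes the calls went from 7273 higher and 6833 lower to 5565 higher and 8591 lower in this comparison, and from 6098 higher and 6500 lower to 7665 higher and 4464 lower in recovering against depleted testes.

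After the values had been seen, levels of the changed genes were also set against some of the cell type marker lists, without a test. These were the Sertoli, Leydig, leukocyte, endothelial, and stromal and muscle lists. The germ cell, erythrocyte and epithelial lists were not set against the genes. Of the Sertoli list, 6 of 8 tested genes rose in depleted testes (edgeR), and of the Leydig list 9 of 9, where 34.2% of all tested genes rose. In CPM of aldh1a2 per 1000 CPM of the Sertoli list, control libraries ranged from 126 to 312, depleted libraries from 733 to 1245 and recovering libraries from 247 to 787. The depleted range lay clear of the control range. Most of the Sertoli sum came from gsdf, DMRT1 and amh, at means of 696, 521 and 364 CPM in control testes. DMRT1 and amh were not called (edgeR). On the log2 scale SOX9 ENSDARG00000003293, WT1 and FSHR rose by 3.84, 3.47 and 3.31 in depleted testes. The rises of inha, gsdf and SOX9 ENSDARG00000043923 were 2.49, 1.54 and 1.02. The Sertoli ratios thus depend on which genes dominate the sum. Per 1000 CPM of the Leydig list the ranges were 245 to 402, 239 to 2285 and 207 to 456, which overlap. Per 1000 CPM of the stromal and muscle list they were 762 to 1142, 231 to 1424 and 390 to 1229, which overlap too. For cyp26b1 the values per 1000 CPM of the Sertoli list were 1.60 to 3.58 in control, 10.4 to 35.95 in depleted and 1.97 to 13.98 in recovering libraries. Per 1000 CPM of the stromal and muscle list cyp26b1 was at 8.75 to 13.0, 5.64 to 25.2 and 4.34 to 13.4. Per 1000 CPM of the Leydig list it was at 2.98 to 4.79 in control and 3.39 to 55.7 in depleted libraries. With the endothelial and leukocyte lists the control and depleted ranges overlapped for both aldh1a2 and cyp26b1. Of the lists set against the genes, only the Sertoli list gave separate control and depleted ranges for aldh1a2 or cyp26b1. For the receptors, raraa per 1000 CPM of the Sertoli list ranged from 1.14 to 2.22 in control and from 1.38 to 7.68 in depleted libraries, and rarga from 5.71 to 10.7 and from 6.06 to 17.3, which overlap for both genes. Their ranges per 1000 CPM of the Leydig list and of the leukocyte list overlap too. Per 1000 CPM of the endothelial list both were lower in depleted than in control libraries, without overlap. Per 1000 CPM of the stromal and muscle list both were lower in depleted libraries without overlap, raraa at 6.63 to 13.4 in control and 2.16 to 4.71 in depleted libraries, and rarga at 26.4 to 48.55 and 4.83 to 12.3. cyp26a1, which was not called, was lower in depleted libraries per 1000 CPM of the stromal and muscle list, without overlap. Its values were 140 to 202 CPM in control and 4.66 to 31.2 CPM in depleted libraries. With the Leydig and endothelial lists its depleted range also lay below the control range. With the Sertoli and leukocyte lists its control and depleted ranges overlapped. The part of a changed mix of cells in the changes of the 7 genes was not tested.

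The other genes of the pathway came from a list of 62 symbols, of which 59 identifiers were found and 53 were tested. Some zebrafish genes carry the capital symbol of their human counterpart in the symbol table, and duplicated genes that share a symbol are given with their identifier. In depleted against control testes 32 of the 53 rose and 8 fell, or 75.5% called where 66.3% of all tested genes were, with a median log2 fold change of 0.93. With total counts 23 rose and 10 fell. In recovering against depleted testes 5 rose and 27 fell, or 8 and 17 with total counts. The 60.4% called there was close to the 59.2% of all tested genes. In recovering against control testes 0 were called (edgeR, adjusted p under 0.05). At an unadjusted p under 0.05 there were 11 of the 53 in that last comparison, beside 16% of all tested genes. DESeq2 called 7 and limma-voom 5, all upward, beside 6.36% and 11.2% of all tested genes.

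Among other enzymes of retinoid handling, 9 of 15 tested genes rose and 3 fell in depleted testes, 80% called beside 66.3% of all tested genes. These counts are with TMM factors, and over the whole pathway list fewer genes rose with total counts. RDH10 oxidises retinol to retinaldehyde, the substrate of Aldh1a2. RDH10 ENSDARG00000058730 was at 17.0 ± 4.36 CPM in control (SD, n = 4), 233 ± 145 CPM in depleted (SD, n = 5) and 99.9 ± 85.6 CPM in recovering libraries (SD, n = 5). Its rise on depletion was 3.78 on the log2 scale (edgeR adjusted p = 0.000251). Its duplicate RDH10 ENSDARG00000012369 rose by a log2 fold change of 0.74 (edgeR adjusted p = 0.00111, or 0.0521 with total counts). DHRS3 catalyses the reverse step, from retinaldehyde to retinol. DHRS3 ENSDARG00000044982 rose from 5.43 ± 1.01 CPM (SD, n = 4) to 153 ± 67.2 CPM (SD, n = 5), by 4.81 on the log2 scale (edgeR adjusted p = 0.000155), and DHRS3 ENSDARG00000044803 by 2.99 (edgeR adjusted p = 0.000622). The RDH10 and DHRS3 genes, for opposite directions of the retinol step, thus rose. DHRS9, more abundant in control testes than these, fell from 103 to 46.9 CPM, by 1.13 on the log2 scale (edgeR adjusted p = 0.00171). CYP26C1, the remaining Cyp26 gene, had a log2 fold change of -0.37 (edgeR adjusted p = 0.4). ALDH1A3, another retinaldehyde dehydrogenase, was at 1.91 CPM in control and 5.55 CPM in depleted testes and did not pass (log2 fold change 1.54, SE 0.84, edgeR adjusted p = 0.121).

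Of 8 tested genes for retinoid uptake and binding, 6 rose and 1 fell in depleted testes, and 6 fell and 1 rose from depleted to recovering testes. With TMM factors that is 87.5% called in each, beside 66.3% and 59.2% of all tested genes. Over the whole pathway list fewer genes were called with total counts in both comparisons. STRA6, a membrane receptor that takes up retinol, was the gene that fell, from 23.5 ± 3.95 CPM (SD, n = 4) to 5.55 ± 4.54 CPM (SD, n = 5), with a fitted log2 change of -2.08 (edgeR adjusted p = 0.0118). Recovering testes held 15.6 ± 2.96 CPM of it (SD, n = 5), a rise of 1.49 on the log2 scale from depleted testes (edgeR adjusted p = 0.0492). RBP2 ENSDARG00000070038, a cellular retinol-binding protein gene, rose from 11.3 ± 6.11 CPM (SD, n = 4) to 251 ± 177 CPM (SD, n = 5), by 4.47 on the log2 scale (edgeR adjusted p = 0.000518). CRABP2 ENSDARG00000030449, whose product binds retinoic acid in the cell, rose from 1.51 ± 0.545 CPM (SD, n = 4) to 44.8 ± 54.3 CPM (SD, n = 5), by 4.84 on the log2 scale (edgeR adjusted p = 0.00167). Its depleted libraries ranged from 6.17 to 136 CPM.

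Of 5 tested RXR partners, 3 rose in depleted testes and 0 fell, or 2 and 1 with total counts. The share called, 60%, was below the 66.3% of all tested genes. RXRA ENSDARG00000057737 rose by a log2 fold change of 1.01 (edgeR adjusted p = 0.00604), rxrga by 0.93 (edgeR adjusted p = 0.00983, or 0.0956 with total counts) and rxrgb by 2.48 (edgeR adjusted p = 0.000623). RXRB had a log2 fold change of -0.13 and did not pass, but was called lower with total counts (-0.50, edgeR adjusted p = 0.0307). rxrbb, at 0.08 and at -0.29 with total counts, passed with neither. Of 13 other nuclear receptors and coregulators 10 rose, among them NR2F1 ENSDARG00000052695, an orphan receptor gene, by 2.84 on the log2 scale (edgeR adjusted p = 3.17e-05), and 0 fell, 76.9% called beside 66.3% of all tested genes. The duplicate NR2F1 ENSDARG00000017168 had a log2 fold change of -0.84 and did not pass (edgeR adjusted p = 0.292). With total counts 5 of the 13 rose. The corepressor gene NCOR1 and the coactivator gene NCOA3 rose by 0.75 and 0.46 on the log2 scale (edgeR adjusted p = 0.0369 and 0.0468), but with total counts neither passed (0.264 and 0.685), while NCOA1 had a log2 fold change of -0.07 and did not pass.

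Of 12 tested genes known to respond to retinoic acid in other vertebrates or tissues, 4 rose and 4 fell in depleted testes (4 and 5 with total counts), with a median log2 fold change of -0.49. The 66.7% called was close to the 66.3% of all tested genes. The genes that rose were CDKN1B ENSDARG00000029018, TGM2 ENSDARG00000074094, MEIS1 and meis2b, with log2 fold changes between 2.77 and 3.39. The tested duplicates of CDKN1B ENSDARG00000029018, TGM2 ENSDARG00000074094 and MEIS1 did not rise. No duplicate of meis2b was found by its symbol. TGM2 ENSDARG00000070157 fell by 1.72 on the log2 scale (edgeR adjusted p = 0.0057). CDKN1B ENSDARG00000054271, at -0.37, and meis1a, at -0.60, did not pass (edgeR adjusted p = 0.357 and 0.0645). rec8b, which encodes a cohesin subunit of meiotic cells, fell from 213 ± 13.0 CPM (SD, n = 4) to 27.2 ± 36.5 CPM (SD, n = 5), with a fitted log2 change of -2.97 (edgeR adjusted p = 0.0371). It moved beside the germ cell sum given above, and the part of germ cell content in its fall was not tested. hoxb1b, a classic direct target in embryos, fell by 0.80 on the log2 scale (edgeR adjusted p = 0.0412). DMRT1, a gonadal transcription factor, was at 521 CPM in control and 554 CPM in depleted testes and did not pass (edgeR adjusted p = 0.699).

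**Figure D5:**
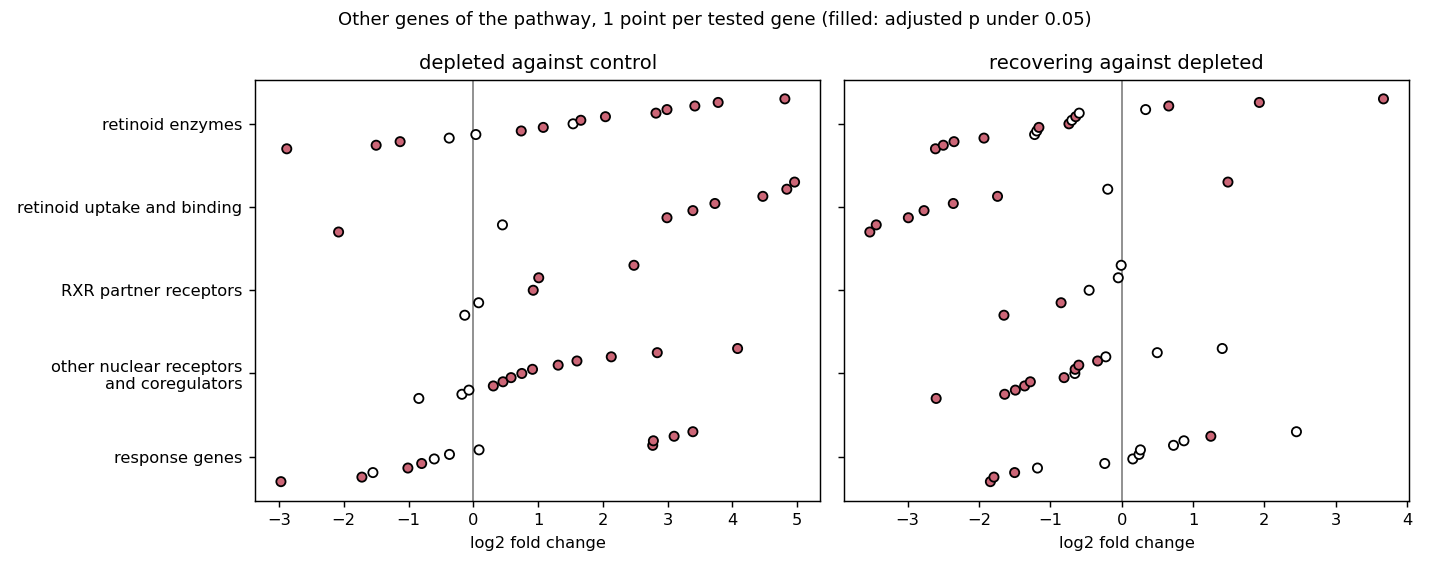
Log2 fold change (x axis) of the 53 other tested genes of the pathway by role (y axis), for depletion against control on the left and recovery against depletion on the right; each point is 1 gene, filled where the edgeR adjusted p is under 0.05. Filled points of the uptake and binding genes and of the nuclear receptors lie almost all right of 0 in the first comparison and left of 0 in the second, and the response genes lie on both sides.

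The genes whose pattern over the 14 libraries was most like that of each member were found among 15285 tested genes with a mean of at least 5 CPM. The measure was the mean absolute difference of log2 CPM, each gene centred on its own mean. For aldh1a2, the nearest genes with a symbol were rpz5, at a difference of 0.16, and PGR, the progesterone receptor gene, at 0.22, where the median candidate was at 1.28. rpz5 had means of 55.8, 501 and 139 CPM in control, depleted and recovering testes, and PGR had 15.2, 151 and 33.5 CPM. For cyp26b1 they were podxl, which encodes the surface sialomucin podocalyxin, at 0.41, and PXN ENSDARG00000060766, which encodes the adhesion protein paxillin, at 0.42, against a median of 1.72. podxl had means of 38.6, 616 and 145 CPM.

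Among genes with a symbol, cyp26a1 was nearest to VANGL2, a planar cell polarity gene, at 0.28, and to ttbk2a at 0.28, against a median candidate at 0.71. raraa was nearest to il12rb2l at 0.19 and to EPHA3, an ephrin receptor gene, at 0.20, against 0.99. rarga was nearest to GALC ENSDARG00000037064, which encodes a lysosomal galactosylceramidase, at 0.17 and to NOD1, an innate immune sensor gene, at 0.18, against 0.86. rarab was nearest, again among genes with a symbol, to setd2, a histone H3 methyltransferase gene, at 0.12, and to si:ch211-200p22.4 at 0.12, against 0.61. rargb was nearest to hdac7b, a histone deacetylase gene, at 0.28, and to EFNB2 ENSDARG00000020164, an ephrin gene, at 0.32, against 0.79.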

How the data were processed

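The authors deposited 1 table of counts per library, whole read counts per Ensembl gene identifier. Per the submitters' processing notes, the genome build was Zv9 and the tools included FastQC 0.10.1, TopHat2 2.0.5, SAMtools 0.1.18, HTSeq and DESeq. Annotation release and strand setting are not given in the sources used here, so a gene cannot be told from an overlapping antisense gene. Libraries were made from 2 µg of total RNA with a TruSeq kit, per the labels' protocols. A symbol table paired 21948 of the 33752 identifiers with a symbol. List symbols were matched ignoring case, otherwise without the paralogue letter.

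In edgeR 4.0.16 (R 4.3.3), filterByExpr kept 99.8% of the counts. Group was the single factor of a model fitted to all 14 libraries with TMM factors, and each contrast was tested by the quasi-likelihood F-test with Benjamini-Hochberg adjustment. SE is the log2 fold change divided by the square root of F, and intervals use the moderated degrees of freedom. The code was tested on simulated data with 200 changed genes. That is far fewer than were called in depleted against control testes, so the simulation does not cover changes this broad. DESeq2 1.42.0 and limma 3.58.1 served as alternatives. Over 26 same-group pairs of libraries the chi-square per degree of freedom was 13.9 or more, so no pair looked like copies of 1 library. Each library was counted once. Pairs across groups were not checked, and the check cannot show whether libraries came from different animals.

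The 7 genes and the lists were chosen with earlier results of these data known. The genes most like a member are the 2 nearest with a symbol. The roles that divide the pathway list were assigned after the files were seen. The labels give no batch.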

Additional observations from a re-analysis of the deposited data

Results flagged for a closer look

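Dixon's test was applied to the CPM of the 7 genes in each group, 21 sets of values, where chance alone gives about 1.05 flags. It marked 1 library as far from the others, depleted replicate 3 for cyp26a1. That library held 195 CPM (1614 counts, with 185 to 204 CPM as its exact 95% Clopper-Pearson interval). The second highest of its group was at 89.4 CPM. The gap between them is 0.714 of the group's range, where 0.71 is critical. Scaled by total counts, depleted replicate 3 was at 175.8 CPM, the second highest at 92.8 CPM and the lowest at 37.4 CPM. On that scale the gap is under the critical value. With TMM factors, depleted replicate 3 also had the highest aldh1a2 level of its group, at 4842 CPM. The same held for cyp26b1, at 157.5 CPM, and for rarga, at 55.8 CPM.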

How the results depend on the processing

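The 21 fold changes of the 7 genes (7 genes in 3 comparisons) were recomputed under 9 other settings and without each of the 14 libraries in turn. Of the 482 values so obtained 446 kept direction and call, 16 passed the threshold anew, 20 changed sign and 0 lost a call. The 4 rises and 4 falls called in the comparisons with depleted testes were called in every setting. Leaving out 1 library gave between 4 and 5 of the 7 genes in each of these comparisons, and limma-voom gave 5 in each, with 69.9% and 61.2% of all tested genes called. The fifth gene was rarab each time. In recovering against control testes the number was 0, and 2 with DESeq2 (1353 genes in all), 1 with limma-voom (2374 genes), 1 with only these groups (1254 genes), 1 with libraries under 20000000 counts (236 genes) and 0 to 1 without 1 library (0 to 556 genes, and 0 without any 1 control library or recovering replicate 1, 2 or 4). The cause was not tested.

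Every change of sign was of a value that was not called. Not all of these were near 0 with TMM factors and all 14 libraries. There rarab was at 0.38 for depleted against control, and cyp26a1 at -0.44 for recovering against depleted testes. For depleted against control testes, rarab was at -0.010 with total counts. For recovering against depleted testes, cyp26a1 was at 0.012 without depleted replicate 3 and ranged down to -0.60 over the libraries left out. For recovering against control testes, cyp26a1 was at -0.0084 with total counts and between -0.12 and -0.0038 without control replicate 3 (-0.07) or 4 (-0.10), or recovering replicate 2, 3 or 5 (-0.02), with a highest value of 0.37 over the libraries left out. rargb was at 0.021 with no filter, 0.014 with only these groups, 0.02 without any 1 depleted library, 0.11 and 0.04 without control replicate 4 or 5 and 0.25 without recovering replicate 5, with a lowest value of -0.23 over the libraries left out.

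With a replicate block, 9 genes in all were called in recovering against control testes against 96 without it, and 0 of the 7. rarab was then at 0.0083 and rargb at 0.032, and no call of the 7 genes changed. Same-numbered samples of different groups correlated in their deviations between -0.16 and 0.24 over 13 pairs, so the numbers were not taken as pairs. The promoter motif counts were not run, since no promoter sequences were used here. Depth limits rargb, with 2 counts in 1 library.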
